A study of Mus musculus with 8 samples.

Results

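In the library labelled B6 male, 599 of 5447 autosomal windows of 100 kb, 11.0% of them, carried reads that the authors had sorted almost only to the DBA strain. A window entered this set of DBA-like windows when it held at least 100 cytosine calls in reads with a strain tag and at least 90% of those calls were DBA. The windows covered 59.9 Mb of the 19 autosomes. Another 4175 windows were B6-like, with at most 10% DBA calls, and 673 windows lay in between and are called mixed. The windows were chosen by the tagged calls of that library, so their share is a description. The methylation levels inside the windows were not used to choose them. The tagged reads that chose the windows do count in those levels wherever all read classes are summed.

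The data are reduced representation bisulfite sequencing (RRBS) of liver DNA from 8 mice at 16 weeks of age, fasted for 16 h per the study's methods. They comprise 1 female and 1 male of each of 4 kinds, namely B6 (the inbred strain C57BL/6J), DBA (the inbred strain DBA/2J) and their reciprocal F1 hybrids, BXD with a B6 mother and DXB with a DBA mother. Each strain and sex is 1 library of 1 mouse, so an interval or a p-value below holds counting error only and compares libraries, not strains. The library labelled B6 male held 273609526 cytosine calls, and the other libraries held between 200744653 (DBA male) and 845527087 (BXD male).

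In RRBS the enzyme MspI, which cuts DNA at CCGG, yields short fragments rich in CG dinucleotides, and bisulfite turns unmethylated cytosine into uracil, which is read as T. In mammalian liver most methylated cytosines stand in CGs, and the methylation of a CG can differ between inbred strains when DNA sequence nearby differs. A SNP inside a read shows which parental chromosome it came from, and such tagged reads let the B6 and DBA chromosomes of an F1 mouse be told apart. A SNP that removes a CG of the reference from 1 strain can make that cytosine read as unmethylated there, although no methylation changed, and a SNP that creates a CG can make a cytosine outside CG of the reference read as methylated.

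Strain CGs were CGs that differed between the B6 and DBA females. Most stood alone, and CGs with gaps of at most 100 bp were joined into runs. The sequences of 3 runs at which not all CGs of the library labelled B6 male were at the DBA level are shown with the strain CGs in capitals, from NCBIM37 (mm9), plus strand. The first pair lies at chr14:20144147-20144204 and chr14:20144831-20144929, with no gene within 10 kb. Another run lies at chr3:36683735-36683806, with no gene within 10 kb. The last sequence, at chr13:99793961-99794001, holds a cytosine outside CG that was methylated in DBA, and its capitals mark that cytosine with its neighbour, as TG on the printed strand and CA on the other.
chromosome 14, first run: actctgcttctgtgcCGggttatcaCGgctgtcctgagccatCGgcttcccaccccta
chromosome 14, second run: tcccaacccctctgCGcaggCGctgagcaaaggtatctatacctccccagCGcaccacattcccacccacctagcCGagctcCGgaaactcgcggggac
chromosome 3 run: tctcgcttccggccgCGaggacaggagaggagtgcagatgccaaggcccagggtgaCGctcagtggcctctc
cytosine outside CG: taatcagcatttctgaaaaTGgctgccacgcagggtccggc

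The tags of the DBA-like windows went against the label of the library. Summed over the 599 windows, 99.1% of the tagged calls of the library labelled B6 male were DBA, beside 99.5% (DBA female), 99.4% (DBA male) and 0.333% (B6 female). The F1 libraries held 48.1% (BXD female), 46.2% (BXD male), 48.1% (DXB female) and 48.2% (DXB male). In the B6 female each of the 599 windows held at least 100 tagged calls, and the DBA share was at most 8.24% in any of them. The DBA female had at least 100 tagged calls in 578 of the windows and a share of 90% or more in 575 of these.

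**Figure D1:**
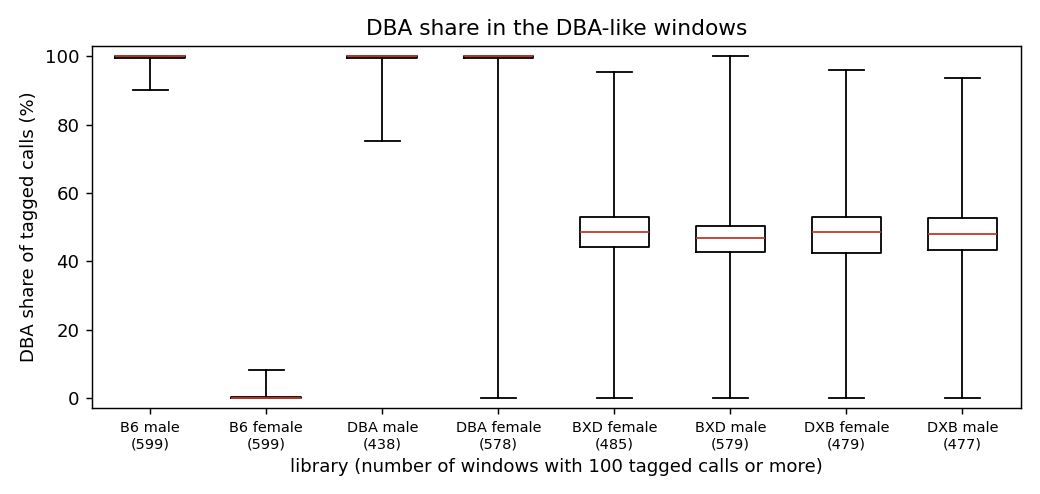
Share of DBA among tagged calls (vertical axis, %) in the DBA-like windows, for each of the 8 libraries (horizontal axis, with the number of windows that had at least 100 tagged calls). Boxes span the quartiles, red lines the medians and whiskers the whole range: the library labelled B6 male lies with both DBA parents, the B6 female lies near 0, and the F1 medians lie between 46.8% and 48.7%.

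In 3 windows the DBA female itself was below 90%. At chr1:143000000-143099999 none of its 144 tagged calls were DBA, while all 152 calls of the library labelled B6 male and 94.0% of 2629 calls of the DBA male were. At chr1:42100000-42199999 the DBA female was at 77.3%, and at chr16:93700000-93799999 it was at 89.7%. Among the 421 windows with at least 100 tagged calls in both DBA parents, both parents reached 90% in 414.

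The windows were chosen by the same tagged calls, so the tags of single cytosines are given as a description. Of 20541 tagged cytosines with at least 10 tagged reads in the library labelled B6 male, 98.5% were at 90% DBA or more and none lay between 25% and 75%. In the mixed windows of the same library, 61.0% of 26229 cytosines lay between 25% and 75%, 23.2% at 10% or less and 11.7% at 90% or more. The 4 F1 libraries had 90.03% to 93.4% of the tagged cytosines of DBA-like windows between 25% and 75%.

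All tagged calls were DBA in 429 of the 599 windows. The number of tagged calls per window ran from 105 to 18269, with a median of 1237, and 93 further windows reached 90% DBA with fewer than 100 calls. The members just inside the limit were chr8:35300000-35399999 at 90.1%, chr8:72300000-72399999 at 90.2% and chr4:135500000-135599999 at 90.2%. Just outside it were chr15:73500000-73599999 at 89.7%, chr11:44400000-44499999 at 89.8% and chr11:101000000-101099999 at 89.9%.

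The DBA-like windows were spread unevenly over the autosomes. Chromosome 8 held 130 of them among 298 windows (43.6%) and chromosome 13 held 83 among 194 (42.8%). The next shares were 29.9% on chromosome 16 (43 of 144) and 25.6% on chromosome 18 (40 of 156). Chromosomes 2, 4, 5 and 9 held between 1 and 5 windows each, and chromosome 10 held 0 of 176. Chromosome 4 had 107 mixed windows beside its 5 DBA-like ones.

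**Figure D2:**
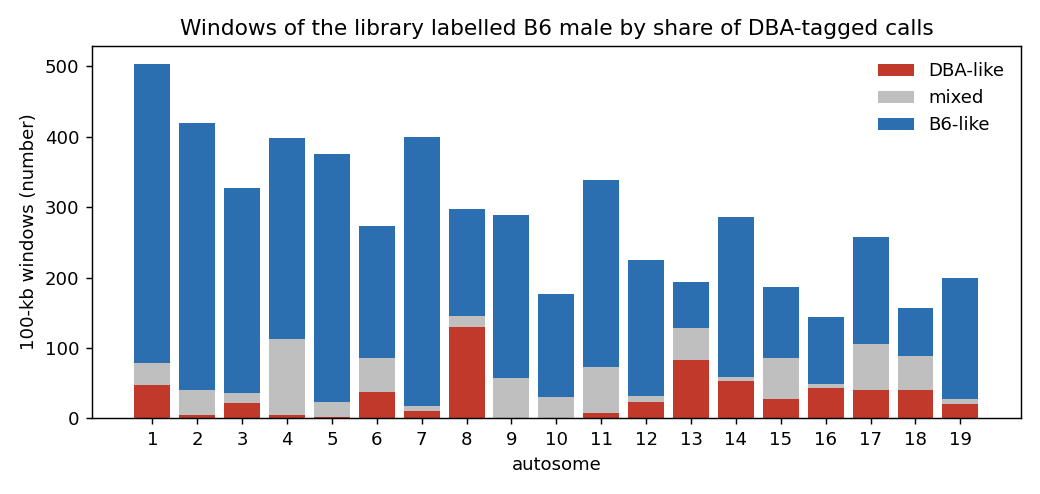
Number of windows with at least 100 tagged calls in the library labelled B6 male (vertical axis) on each autosome (horizontal axis), split into DBA-like (red, at least 90% DBA), mixed (grey) and B6-like (blue, at most 10% DBA). Chromosomes 8 and 13 hold the largest shares of DBA-like windows, and chromosome 10 holds none.

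The 599 windows formed 181 runs that no other window with enough calls interrupted, of which 95 were single windows and 35 held at least 5 windows, 373 windows in all. Ranked by their number of windows, the largest run, chr14:11600000-22899999, spanned 11.3 Mb with 51 windows and 35 protein-coding genes, among them Thrb and Rarb (nuclear receptors for thyroid hormone and retinoic acid), Nr1d2 (a nuclear receptor of the circadian clock) and Adk (adenosine kinase). Second was chr8:71900000-77799999, with 30 windows over 5.9 Mb and 111 genes, among them Jak3 (a kinase of cytokine receptors), Gdf15 (a secreted stress-induced cytokine), Klf2 (a transcription factor of endothelium) and Tm6sf2 (a liver protein of lipoprotein secretion). The run chr3:36500000-41699999 held 21 windows over 5.2 Mb with 19 genes, among them the cytokine genes Il2 and Il21 and the growth factor gene Fgf2. The run chr8:37800000-42399999 held 21 windows over 4.6 Mb with 18 genes, among them Fgl1, which encodes a protein secreted by hepatocytes. The fifth, chr8:35700000-37699999, held 16 windows over 2 Mb with 10 genes, among them Ppp1r3b, which encodes a subunit that directs protein phosphatase 1 to glycogen.

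Runs could be parted by a single window of B6 state. In 40 cases 1 B6-like window lay between DBA-like windows when only windows with at least 100 tagged calls were counted. These 40 had a DBA share of at most 7.15% and a median of 1581.5 tagged calls. The DBA female held at least 95.5% DBA calls in those 40 windows, with a median of 99.7%.

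Of 21281 protein-coding genes, 853 (4.01%) overlapped a DBA-like window, and 13101 overlapped no window with enough tagged calls. From 29 listed genes with known functional variants between B6 and DBA, 1 lay in a DBA-like window, Cyp2d9, which encodes a cytochrome P450 of male liver. All 1996 tagged calls of its window were DBA. Rgs9 (a regulator of G protein signalling) and Nnt (the mitochondrial transhydrogenase that C57BL/6J lacks) lay in mixed windows at 47.5% and 52.5% DBA. Among listed liver genes, Serpina1a, an alpha-1 antitrypsin gene, lay in a DBA-like window with 168 tagged calls, all of them DBA. None of 24 imprinted genes and none of 18 genes of DNA methylation enzymes and readers overlapped a DBA-like window, and 16 and 13 of these, respectively, had no window with enough calls.

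The tissue was checked at promoters. Within 1 kb of the gene start the library labelled B6 male had mean CG levels of 30.9% at Apob, 15.2% at Fgb and 20.7% at Hnf4a, genes of liver. At Lck, a gene of T cells, the mean was 85.9%. At Col1a1 (stellate cells) and Pecam1 (endothelium) the means were 45.4% and 86.7%. The defining liver genes Alb, Ttr and Apoa1 had no covered CG there.

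CG methylation in the DBA-like windows was compared between pairs of parents by the binomial rule, which calls a CG when each level lies outside the exact 95% binomial interval of the other and the levels differ by more than 50 percentage points, with at least 10 reads in both libraries. Between the library labelled B6 male and the B6 female, 283 of 22298 CGs in DBA-like windows were called, 1.27%, where all autosomal CGs gave 0.421%. With untagged reads only, 128 of 18398 CGs in DBA-like windows were called. For this pair no untagged count was made in B6-like windows or over all autosomal CGs. Untagged reads are those of the class non-polymorphic and of the class named unknown, whose meaning is not stated. Of the 283 CGs, 267 were lower in the library labelled B6 male. Most called CGs were lower in that library elsewhere too, at 438 of 550 in B6-like windows and 2129 of 2513 over all autosomal CGs. In B6-like windows the same pair gave 0.315% (550 of 174845). With all read classes summed, the 2 libraries labelled B6 thus differed more often where the tags were DBA. The tagged reads in these sums also chose the windows. The counts of this pair, and of the pairs below that hold the library labelled B6 male, are thus not independent of the window rule.

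Against the DBA parents the order was turned. Between the library labelled B6 male and the DBA male, 32 of 12500 CGs (0.256%) were called in DBA-like windows and 805 of 87101 (0.924%) in B6-like windows, where all autosomal CGs gave 0.425%. Between that library and the DBA female, 88 of 19896 CGs (0.442%) were called in DBA-like windows and 1917 of 140319 (1.37%) in B6-like windows, where all CGs gave 0.724%. Mixed windows lay between the other states in each of these 3 pairs, at 0.734%, 0.486% and 0.839%.

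**Figure D3:**
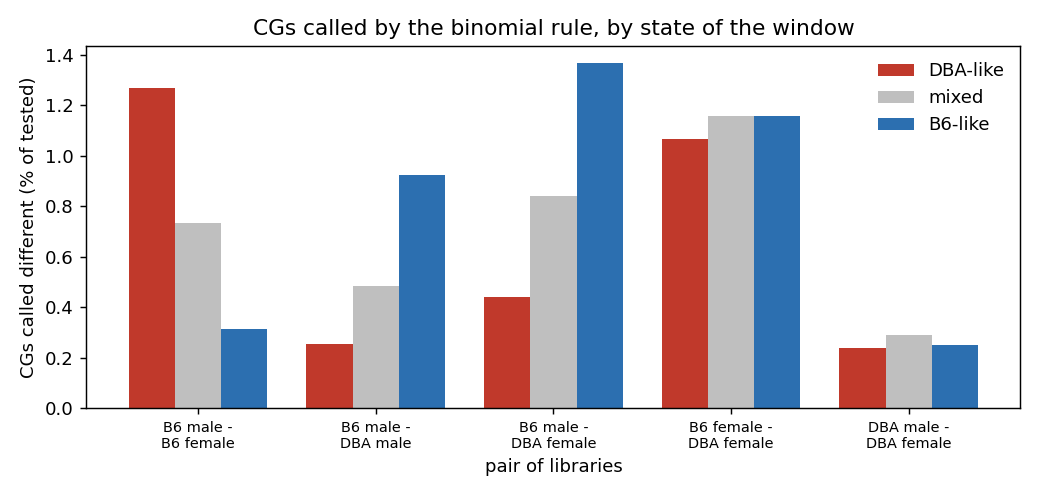
Percentage of tested CGs called by the binomial rule (vertical axis) for 5 pairs of parental libraries (horizontal axis), in DBA-like (red), mixed (grey) and B6-like windows (blue) of the library labelled B6 male. The first 3 pairs hold that library and change with the state of the window, from 1.27% to 0.315% against the B6 female and from 0.256% to 0.924% against the DBA male. The last 2 pairs do not hold it and lie at 1.07% to 1.16% and at 0.240% to 0.289%.

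Pairs without that library changed little with the state of the window. The B6 and DBA females gave 347 of 32527 CGs (1.07%) in DBA-like windows and 1.16% in B6-like windows, where all CGs gave 0.56%. The DBA male and female gave 30 of 12510 (0.240%) and 0.250%, where all CGs gave 0.27%.

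Averages over all covered CGs separated the states less clearly. Over 9840 CGs of DBA-like windows with at least 10 reads in the 4 parents, the mean absolute difference of the library labelled B6 male was 4.52 ± 0.0710 percentage points (SE over CGs) from the DBA male, 5.60 ± 0.104 from the B6 female and 5.63 ± 0.0881 from the DBA female. Over 68125 CGs of B6-like windows the values were 5.55, 4.92 and 6.61. The library labelled B6 male was nearest to the DBA male in mixed windows too, at 5.10, 5.37 and 6.19, and in windows with too few tagged calls, at 4.94, 5.06 and 5.91, so this order was shared by windows outside the DBA-like set. The distances to the B6 female and the DBA female in the DBA-like windows lay within their SE of each other, and with windows of 50 kb their order turned, at 5.68 from the B6 female and 5.56 from the DBA female.

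Strain CGs asked more directly whether methylation followed the tags. They were chosen in the females alone, so the levels of both males played no part in choosing the CGs. These levels sum all read classes, and the tagged reads among them also chose the windows. The counts of the library labelled B6 male are thus not independent of the window rule. In DBA-like windows 86 strain CGs in 70 windows had at least 10 reads in the 4 parents. The library labelled B6 male was nearer to the DBA female than to the B6 female at 72 of them, 83.7% (95% exact interval 74.2 to 90.8). That interval treats the 86 CGs as independent draws. Some of them share a window, so it can be too narrow and is given as a description. In mixed windows the count was 38 of 94 (40.4%), in B6-like windows 26 of 570 (4.56%), and over all autosomal strain CGs 226 of 1024 (22.1%). The DBA male was nearer to the DBA female at 82 of the 86. With untagged reads only, the strain CGs were called anew from those reads. The library labelled B6 male was then nearer to the DBA female at 18 of 22 strain CGs in DBA-like windows. In B6-like windows it was nearer to her at 19 of 207.

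The levels at the 86 CGs fell into separate ranges for most CGs. The median level was 0% in the library labelled B6 male, 88.6% in the B6 female, 0% in the DBA male and 0% in the DBA female. On a scale on which the B6 female is 0 and the DBA female is 100, the library labelled B6 male had a median of 100 (quartiles 98.8 and 100), the F1 libraries had medians of 49.2 to 53.7, and the same library had 1.10 in B6-like windows and 44.5 in mixed windows. By the binomial rule it was called different from the B6 female at 70 of the 86 CGs, from the DBA female at 6 and from the DBA male at 5.

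**Figure D4:**
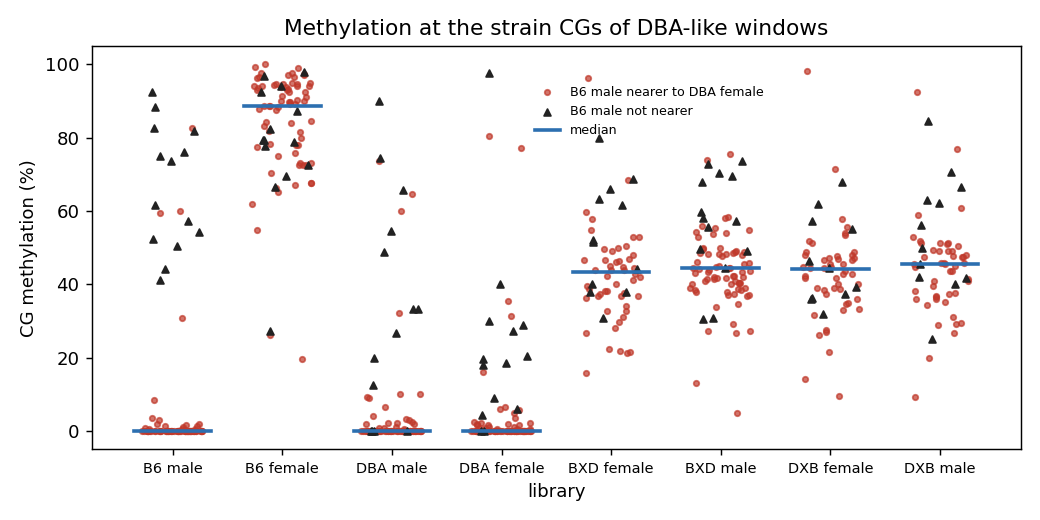
Methylation (vertical axis, %) of the 86 strain CGs of DBA-like windows in each of the 8 libraries (horizontal axis), shown where a library has at least 10 reads. Red points are the 72 CGs at which the library labelled B6 male was nearer to the DBA female, black triangles the other 14, and blue lines the medians: most red points of that library and of both DBA parents lie at 0, while the medians of the F1 libraries lie between the strains.

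Most strain CGs were at or near 0 in the DBA female. The B6 female was higher at 83 of the 86, 67 of the DBA female levels were 5% or less, and no read of the library labelled B6 male was methylated at 55. The first 2 counts were 522 and 423 of 570 strain CGs in B6-like windows. Over all autosomal strain CGs they were 927 and 660 of 1024, so these traits were not particular to DBA-like windows. At the 67 CGs that were at 5% or less in the DBA female, the library labelled B6 male was nearer to her at 64 (95.5%, interval 87.5 to 99.1). At the 19 CGs above 5%, where reads of the DBA female still showed methylation, it was nearer at 8 (42.1%, interval 20.3 to 66.5), beside 21 of 147 (14.3%) such CGs in B6-like windows. Since 6 of those 19 lie in 1 stretch of chromosome 14, the count without that stretch was 8 of 13. The intervals for the 67 and the 19 CGs also treat CGs as independent draws, and they are given as a description. Without the need for reads in the DBA male, the counts were 147 of 155 (94.8%) at 5% or less and 21 of 37 (56.8%) above 5%, with 17 of 1169 (1.45%) and 44 of 329 (13.4%) in B6-like windows. Loss of the CGs from the DBA sequence was not tested.

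The strain CGs lay in 29 cases in an intron, in 6 in a coding exon, in 3 in a UTR, in 9 within 10 kb of a gene and in 39 farther away. All strain CGs were nearer to the DBA female in 62 of the 70 windows, none was in 5, and in 3 windows they were divided. By chromosome, 21 of 23 CGs on chromosome 8, 8 of 9 on chromosome 13, all 7 on chromosome 16 and all 4 each on chromosomes 1 and 6 were nearer to the DBA female. The lowest counts were 11 of 19 on chromosome 14 and 3 of 5 on chromosome 17.

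Several strain CGs in and near genes were at the DBA level in the library labelled B6 male. In an intron of Esrrg, a gene for an orphan nuclear receptor, chr1:189829266 had 0 of 53 methylated reads in the library labelled B6 male, 39 of 42 in the B6 female, 0 of 45 in the DBA male and 0 of 23 in the DBA female. In a UTR of Spry1, whose protein restrains signalling by growth factor receptors, chr3:37542748 had 0 of 34, 56 of 62, 0 of 152 and 0 of 28. Near Acadl, which encodes an acyl-CoA dehydrogenase of fatty acid oxidation, chr1:66873732 had 4 of 201, 145 of 172, 0 of 25 and 1 of 102. At each of the 3, the library labelled B6 male overlapped with the DBA parents and lay far below the B6 female. In an intron of Speg, a kinase gene of striated muscle, chr1:75426218 had 0 of 11, 12 of 15, 0 of 58 and 0 of 11. In and near Ankrd50, chr3:38356464 in a coding exon had 0 of 108, 72 of 76, 0 of 27 and 0 of 134, and chr3:38339769 had 1 of 148, 143 of 163, 0 of 21 and 0 of 45. Far from genes, chr1:46481559 had 0 of 58, 52 of 56, 3 of 32 and 0 of 21.

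The chromosome 14 stretch went another way. Its window, chr14:20100000-20199999, had 1462 tagged calls in the library labelled B6 male, all of them DBA, and no DBA call in the B6 female. Of the 14 strain CGs at which that library was not nearer to the DBA female, 7 lay in 753 bp of this window, among 8 strain CGs in all. At the 3 CGs of the first run it averaged 64.0%, beside 87.8% in the B6 female, 4.17% in the DBA male and 10.001% in the DBA female. At the 5 CGs of the second run it averaged 49.7%, beside 79.4%, 22.7% and 17.2%.

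The members of the second run did not act alike. Its first CG, chr14:20144846, had 0 of 92 methylated reads in the library labelled B6 male, 113 of 145 in the B6 female, 0 of 15 in the DBA male and 0 of 221 in the DBA female. The next, chr14:20144852, only 6 bp away, had 47 of 93, 100 of 144, 4 of 15 and 41 of 221. The last, chr14:20144914, had 77 of 94, 142 of 145, 5 of 15 and 64 of 222. The first CG thus matched DBA, while the other 4 lay between the females and nearer to the B6 female. At those 4 the library labelled B6 male differed from the DBA female (adjusted p between 8.26e-16 and 2.58e-06, Fisher's exact test over all autosomal CGs), and from the B6 female at 1 of them, the last (adjusted p = 0.00128). The DBA male had 15 reads at each, and by the same exact test the library labelled B6 male differed from it at the last CG only (adjusted p = 0.0297).

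**Figure D5:**
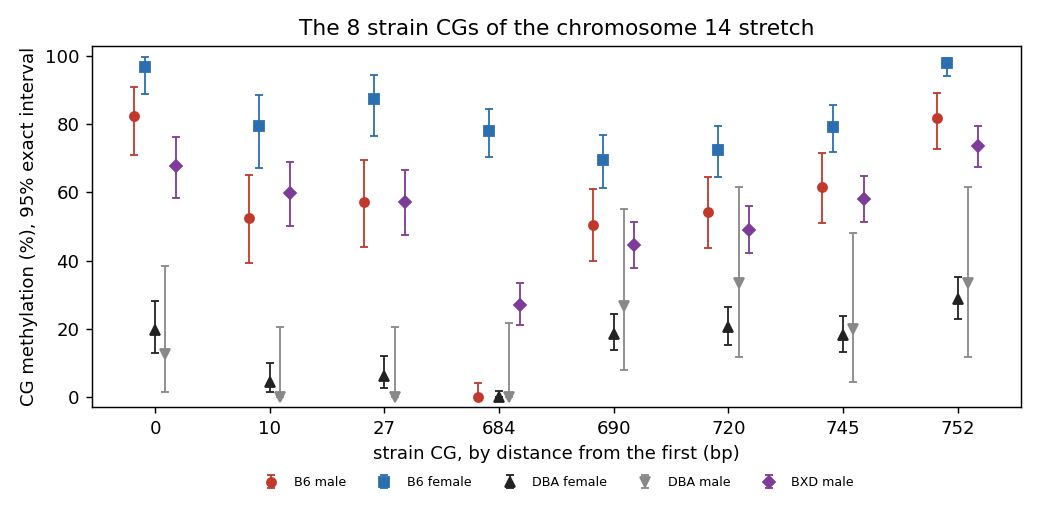
Methylation (vertical axis, %) of the 8 strain CGs of the chromosome 14 stretch by distance from the first in bp (horizontal axis), in the library labelled B6 male (red circles), the B6 female (blue squares), the DBA female (black triangles), the DBA male (grey triangles) and the BXD male (purple diamonds), with exact 95% binomial intervals. At 684 bp the library labelled B6 male is at 0 with both DBA parents. At the other 7 CGs it lies between the females and near the BXD male. The other F1 libraries are not shown. At the first run they averaged 43.2% (BXD female), 43.6% (DXB female) and 47.2% (DXB male). The BXD male averaged 61.6% there and the library labelled B6 male 64.0%.

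The tags at the second run were DBA in all reads of the library labelled B6 male. Its DBA-tagged reads were at 50.5%, 54.3%, 61.7% and 81.9% at the last 4 CGs. The DBA-tagged reads of the BXD male, 112 per CG, were at 33.9%, 38.4%, 47.3% and 60.7% there, and those of the DBA female, 220 to 222 per CG, at 18.6%, 20.5%, 18.02% and 28.8%. The B6-tagged reads of the BXD male were at 55.3%, 60.2%, 69.2% and 87.5%. DBA-tagged reads were thus lowest in the DBA female and highest in the library labelled B6 male among these 3 libraries. At these 4 CGs all reads of those 2 libraries carried the DBA tag, so the exact test above covers that pair. The differences from the BXD male were not tested. At the first run the library labelled B6 male had reads without a tag only, 63 per CG.

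The chromosome 3 run at chr3:36683735-36683806 was also divided. At chr3:36683750 the library labelled B6 male had 0 of 39 methylated reads, the B6 female 72 of 80, the DBA male 0 of 19 and the DBA female 2 of 33. At chr3:36683791, 41 bp away, it had 36 of 39, beside 74 of 80, 0 of 19 and 0 of 33. The first CG was at the DBA level and the other at the B6 level, both in 39 reads. All 39 of those reads were in the class named unknown, whose meaning the sources used here do not state, and no tag could be read from them.

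The remaining 6 of the 14 CGs are named after their values were seen. In a coding exon of Gpr115, an adhesion receptor gene, chr17:42804192 had 15 of 17 methylated reads in the library labelled B6 male, 42 of 54 in the B6 female, 0 of 18 in the DBA male and 0 of 13 in the DBA female. Far from genes, chr17:71221554 was one of the 3 strain CGs higher in DBA, and it had 92 of 224, 41 of 151, 124 of 138 and 43 of 44. At both, the library labelled B6 male differed from each DBA parent (adjusted p between 5.05e-19 and 0.000117, Fisher's exact test over all autosomal CGs), while its difference from the B6 female did not pass (adjusted p = 1 and 0.110). At 3 more, in introns of Mtus1 (chr8:42182750), Rnf150 (chr8:85573415) and Trpc7 (chr13:56992009), the DBA male as well lay nearer to the B6 female. In the Mtus1 intron the 4 parents had 27 of 61, 36 of 54, 116 of 238 and 2 of 22, in the order used above, while 25 bp away chr8:42182775 had 0 of 61, 29 of 53, 0 of 234 and 0 of 22. The counts at the Rnf150 CG were 9 of 12, 14 of 17, 44 of 59 and 3 of 10, and those at the Trpc7 CG were 38 of 50, 48 of 61, 54 of 82 and 3 of 11. At these CGs the levels of the DBA male and the DBA female lay far apart. In an intron of Fhit, chr14:11716904 had 14 of 19, 32 of 34, 59 of 108 and 6 of 15.

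Strain CGs with tagged reads of both strains in an F1 library allowed a second reference. In DBA-like windows the library labelled B6 male was nearer to the DBA-tagged than to the B6-tagged reads of the BXD male at 55 of 63 strain CGs (87.3%). In the other F1 libraries the counts were 30 of 33 (BXD female), 26 of 27 (DXB female) and 29 of 32 (DXB male). In B6-like windows they were 7 of 361 in the BXD male, 2 of 173, 5 of 154 and 3 of 165, and in mixed windows 24 of 56, 14 of 30, 8 of 21 and 12 of 26. The F1 references share the library labelled B6 male and many CGs, so they are not separate observations. The windows were chosen by the tags of that library, and these CGs are ones with tagged reads. The choice of windows thus favoured these counts, which are given as a description.

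The 283 CGs that separated the libraries labelled B6 were chosen by a difference above 50 points from the B6 female, which favours a level nearer to any other library. Of 231 with at least 10 reads in the DBA female, the library labelled B6 male was nearer to her at 213 (92.2%), where B6-like windows gave 226 of 349 (64.8%). With the DBA male as reference the states did not stand apart, at 111 of 123 (90.2%) in DBA-like and 148 of 165 (89.7%) in B6-like windows. At 191 of the 283 it was at 5% or less. Such CGs formed 4 runs of at least 3, and in 2 of these the library labelled B6 male was also called different from a DBA parent. In the other 2 it lay nearer to a DBA parent. In an intron of Ell it averaged 15.4% in 13 reads per CG (94.9% in the B6 female and 39.0% in the DBA female). The DBA male had no read at the Ell run. In a coding exon of Elfn2 the library labelled B6 male averaged 30.4% in 23 reads per CG (90.5% in the B6 female and 27.6% in the DBA male). The parents of the DBA strain were far apart at the Elfn2 run, where the DBA female averaged 93.3% in 5 reads per CG. In an intron of Rgnef, which encodes a guanine nucleotide exchange factor, 3 CGs at chr13:98825338-98825385 averaged 0% in 28 to 31 reads of the library labelled B6 male, 89.95% in the B6 female and 91.5% in the DBA female, and the F1 averages were 90.9% to 96.8%. Far from genes, 9 CGs at chr8:84828305-84828369 averaged 30.9% in 18 reads each, 93.0% in the B6 female and 97.5% in the DBA male, and the F1 averages were 85.8% to 89.5%. The DBA male had 1 read per CG in the Rgnef run and the DBA female 1 read per CG in the chromosome 8 run, so each run was compared with 1 DBA parent. Against the DBA female a further run of 4 CGs was called in a coding exon of Jak3, at chr8:74209873-74209888, with averages of 17.5% in 10 reads of the library labelled B6 male, 38.2% in the B6 female and 73.5% in the DBA female. These 5 runs are named after their values were seen.

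Cytosines outside CG were examined where they were higher in DBA, a direction fixed by the choice. Among cytosines that are not in a CG of the reference, 0.0286% were called higher in the DBA than in the B6 female. Tagged calls at these cytosines also counted in the window rule, and no count with untagged reads only was made. The counts of the library labelled B6 male are thus not independent of the choice of windows and are given as a description. In DBA-like windows 84 of these cytosines had at least 10 reads in the library labelled B6 male, which was nearer to the DBA female at 81 (96.4%). Its median was 90.8%, beside 0% in the B6 female and 90.2% in the DBA female. In mixed windows it was nearer at 44 of 128 (34.4%) with a median of 38.0%, and in B6-like windows at 3 of 662 (0.453%) with a median of 0%. The reference has CA at 65 of the 84 (77.4%), a share close to the 79.7% of mixed and 79.5% of B6-like windows. Whether the DBA sequence has a CG at these cytosines was not tested.

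The cytosine at chr13:99793981, whose sequence is printed above, had 182 of 192 methylated reads in the library labelled B6 male, 3 of 118 in the B6 female, 40 of 41 in the DBA male and 70 of 77 in the DBA female. In an intron of Dnahc7b, which encodes a dynein heavy chain, chr1:46380883 had 170 of 199, 1 of 137, 22 of 23 and 148 of 165. They are the CA cytosines with the most reads in the library labelled B6 male, and both were high in that library and the DBA parents, where most strain CGs were low.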

How the data were processed

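Liver RRBS libraries of 8 mice were analysed. The authors cut DNA with MspI, aligned reads to mm9 with BS Seeker, kept unique alignments, called SNPs from the reads and sorted reads with a SNP into the classes B6 and DBA. The sources used here do not give versions, trimming or treatment of duplicates. Deposited by the authors were raw counts of methylated and unmethylated reads per cytosine and class, and the level as a fraction from 0 to 1, which was checked and not used. Tables of 4 comparisons (mean fractions, intervals, differences and p-values, with 12 columns of values of single mice) were not used.

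Windows were chosen by the position divided by 100 kb. Counts of all classes were added per cytosine and strand, and levels and exact 95% binomial intervals were taken from the sums, with at least 10 reads. A difference above 50 percentage points was needed, after the study's rule for parents. Fisher's exact test was adjusted by Benjamini-Hochberg over all autosomal CGs of a pair, with a threshold of 0.05. The call rules were tested on simulated data. Genes are those of GENCODE for NCBIM37, joined within 10 kb. Named CGs are those of the 12 runs with the most strain CGs, ties by position, and named genes are those of the 5 runs with the most windows and of the fixed lists. Some members of the runs and lists are not reported here. The windows, lists and tests were chosen with earlier results of these data known. The median number of reads in DBA-like windows was 45 at CGs with at least 10 reads in the library labelled B6 male, where a level at 10 reads moves in steps of 10 points. Alternatives concerned the window rule, minimum of reads, difference, test, read classes, strands and reference parent. Scripts ran in Python 3.11.15 with scipy 1.17.1, numpy 2.4.6, pandas 2.3.3, numba 0.67.0, pysam 0.24.0 and matplotlib 3.10.9, and with samtools 1.23.1.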

Additional observations from a re-analysis of the deposited data

Results flagged for a closer look

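A signal appeared in the read class named unknown, which no comparison used on its own. Of calls in the classes B6, DBA and unknown in DBA-like windows, 1.498% were unknown in the library labelled B6 male, beside 0.385% to 0.917% in the other 7 libraries. In its B6-like windows the share was 0.782% and in its mixed windows 2.13%. The X chromosome was outside the autosomal windows. There, 4 of 46 windows with at least 100 tagged calls were DBA-like in the library labelled B6 male, beside 0 of 85 in the B6 female, and 39 of the 46 were B6-like. Rows on the Y chromosome numbered 2838 in that library and 2348 in the DBA male, beside 574 to 719 in the 4 females. The cause of either signal was not tested.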

How the results depend on the processing

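The number of DBA-like windows ran from 431 to 752 over 7 other window rules, and the covered length from 37.6 to 86.2 Mb. These extremes came from the width of the windows, with 752 windows of 50 kb and 431 of 200 kb. The DBA-like share of windows lay between 9.12% and 11.4%. The share of strain CGs nearer to the DBA female in DBA-like windows stayed between 75.6% and 87.5% under 15 of 20 alternatives, among them reads without a tag (18 of 22 CGs). It was 93.5% with at least 20 reads, 67.5% with differences above 30 points and 91.0% without chromosome 14. It fell to 42.1% with only CGs above 5% in the DBA female and to 12.5% with only CGs that had at least 2 others within 100 bp, which left the 8 CGs of the chromosome 14 stretch. In B6-like windows the share was 8.72% with at least 5 reads, 1.29% with 20 reads, 16.1% above 30 points, 2.94% by Fisher's exact test, 9.18% with untagged reads, 14.3% above 5% in the DBA female and 7.54% with the DBA male as reference.

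The calls of the library labelled B6 male given here are in DBA-like windows, and those between the females and within DBA are over all autosomal CGs (4816 and 864 with 10 reads). With at least 5 reads those of the library labelled B6 male were 194 against the DBA female and 75 against the DBA male, those of the females 7369 and those within DBA 3221. With 20 reads they were 172 against the B6 female, 45 and 10, and 235 within DBA. Above 30 points they were 827, 585 and 136, with 13748 between the females and 8261 within DBA. Fisher's exact test gave 531 within DBA, and in DBA-like windows 18 within DBA (30 by the binomial rule) and 31 between the library labelled B6 male and the DBA male (32). Untagged reads gave 128 of 18398 tested CGs against the B6 female, 20 of 10810 against the DBA male and 2377 of 809021 between the females. Without chromosome 8 there were 57 against the DBA female and 21 against the DBA male. The mean absolute differences from the B6 female, DBA female and DBA male were 6.31, 6.46 and 5.58 with 5 reads and 4.92, 4.98 and 3.69 with 20. That from the B6 female was 5.22 with untagged reads, and that from the DBA female 5.80 in windows of 99% DBA or more. The causes of these changes were not tested. The settings that left out a chromosome and the one without reads in the DBA male were chosen after seeing the data.

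No paired analysis was possible because each strain and sex has 1 library and the labels give no replicate numbers. With 1 mouse per group, variation between mice could not be measured.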
